A study of Mus musculus with 15 samples.

Results

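The 7 genes described here encode sugar carriers of the cell membrane or the enzyme that starts the breakdown of fructose: Slc5a1, Slc2a1, Slc2a2, Slc2a3, Slc2a5, Slc2a7 and Khk. They were chosen by symbol, and each was found once among the 78298 genes of the count files. Organoids of the mouse small intestine gave 15 poly-A RNA libraries, 3 for each of 5 conditions. They had been grown from crypts of female C57BL/6J mice aged 8 to 16 weeks, and all were stably transduced with lentivirus and selected with antibiotics, so that the controls carry a transgene too. Halo-NLS organoids expressed a HaloTag with a nuclear localization signal. SOX9-mEGFP_budding and SOX9-Halo_budding organoids expressed the transcription factor SOX9 fused to mEGFP or to HaloTag and still budded. SOX9-mEGFP_spheroid and SOX9-Halo_spheroid were organoids with the same SOX9 transgenes that had become round spheroids. Each transgene was driven by the ubiquitous L30 promoter and came with puromycin resistance. The spheroids also carried histone H2B fused to mScarletI with neomycin resistance in the SOX9-mEGFP line, or to mEGFP with zeocin resistance in the SOX9-Halo line, and were at later passages than the budding organoids. Morphology, time in culture and the added transgene therefore cannot be told apart. Each library pools 6 wells of 1 selected line harvested 5 days after seeding, so the spread between libraries is that between harvests of a line.

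In the small intestine, SGLT1 (Slc5a1) takes up glucose and galactose together with sodium through the apical membrane, driven by the sodium pump. GLUT5 (Slc2a5) takes up fructose through the same membrane, and GLUT7 (Slc2a7) is a close relative of GLUT5. GLUT2 (Slc2a2) lets these sugars leave through the basolateral membrane. GLUT1 (Slc2a1) and GLUT3 (Slc2a3) are high-affinity glucose carriers, GLUT1 of many tissues and GLUT3 mainly of neurons. Ketohexokinase (Khk) phosphorylates fructose, and triokinase (Tkfc) later phosphorylates the glyceraldehyde made from it. Absorption of sugars is a task of mature enterocytes of the villus.

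The libraries held 28062722 to 40559766 reads assigned to genes, with a median of 33491297. Values are given as normalized counts, that is counts scaled to the same library size with TMM factors, or as RPKM, reads scaled to both exon length and library size, where genes are compared with each other. Sox9 itself, whose count includes the transgene's coding sequence, lay between 305 and 769 normalized counts in Halo-NLS and between 1336 and 23654 in the 12 SOX9 libraries. The lowest of those was SOX9-Halo_budding replicate 1, and the next lowest had 6487. Halo-NLS replicate 3 had the highest number of genes with a count, 40375 against a median of 28352. The number of members called was the same without either library in every comparison that it entered. The 5 pan-epithelial markers summed to between 4255 and 10676 CPM (counts scaled to library size) in every library. Marker lists of fibroblasts, leukocytes, endothelial and red cells, and neurons and glia each summed to at most 8.53 CPM, the highest being neuronal and glial markers in Halo-NLS.

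The 7 genes lie on 4 chromosomes of GRCm39. Slc5a1 (chr5:33261563-33320214) and Khk (chr5:31078775-31101479) are on the plus strand of chromosome 5. Slc2a5 (chr4:150196268-150228931) and Slc2a7 (chr4:150233220-150253497) are neighbours on the plus strand of chromosome 4, with 4288 bases and 0 protein-coding genes between them, and Slc2a1 (chr4:118965908-118996365) is on the same strand farther off. Slc2a2 is at chr3:28752051-28785508 on the plus strand and Slc2a3 at chr6:122704768-122778599 on the minus strand. Because 5 of these genes were lower in spheroids and Slc2a1 was not, the 200 bases before the annotated start of the canonical transcript are shown for 4 of the former and for Slc2a1. They are read 5′ to 3′ on the gene's strand, in lower case, with matches to the motifs named after them in capitals. The windows are chr5:33261363-33261562 for Slc5a1, chr4:150203540-150203739 for Slc2a5, chr3:28751851-28752050 for Slc2a2, chr5:31078575-31078774 for Khk and chr4:118965708-118965907 for Slc2a1, all on the plus strand.
Slc5a1: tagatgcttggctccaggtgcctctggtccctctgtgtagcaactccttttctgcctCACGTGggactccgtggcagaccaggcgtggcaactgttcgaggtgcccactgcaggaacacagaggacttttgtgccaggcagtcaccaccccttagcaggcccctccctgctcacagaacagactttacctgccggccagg
Slc2a5: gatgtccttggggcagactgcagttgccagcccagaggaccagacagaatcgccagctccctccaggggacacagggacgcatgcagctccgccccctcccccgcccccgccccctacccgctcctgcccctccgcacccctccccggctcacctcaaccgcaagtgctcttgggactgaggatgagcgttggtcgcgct
Slc2a2: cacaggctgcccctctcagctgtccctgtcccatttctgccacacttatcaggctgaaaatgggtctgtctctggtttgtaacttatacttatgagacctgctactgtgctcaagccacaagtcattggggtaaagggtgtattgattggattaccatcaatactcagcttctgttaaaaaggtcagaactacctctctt
Khk: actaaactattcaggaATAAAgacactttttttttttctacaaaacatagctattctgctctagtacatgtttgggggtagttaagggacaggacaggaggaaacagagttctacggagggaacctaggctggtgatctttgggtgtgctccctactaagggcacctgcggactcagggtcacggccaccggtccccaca
Slc2a1: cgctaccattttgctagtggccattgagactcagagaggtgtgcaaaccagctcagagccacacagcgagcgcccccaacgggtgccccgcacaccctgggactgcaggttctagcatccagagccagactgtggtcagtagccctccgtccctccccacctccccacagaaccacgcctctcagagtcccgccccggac
The 8 motifs were searched on both strands, and the share of windows of the same length that hold each is given over 21770 protein-coding genes. They were TATAAA (the TATA box, 9.57%), TTTAT (CDX factors, 29.9%), GTTAAT (HNF1, 4.81%) and CAAAGT (HNF4, 10.1%). The others were AGATAA (zinc finger factors of the Gata family, 7.25%), ACAAT (the SOX core, 21.6%), CACGTG (an E-box of carbohydrate-response elements, 5.43%) and ACGTG (the hypoxia-response core, 14%). Each CACGTG also holds ACGTG, and ATAAA within TATAAA is TTTAT on the other strand. The Slc5a1 window held CACGTG from 143 bases before the start, and the Khk window TTTAT on the minus strand from 184 bases before the start. The windows of Slc2a5, Slc2a2, Slc2a7 and Slc2a1 held none of the 8 motifs. They differed in base composition, with a GC content of 69% and 12 CG pairs in Slc2a5 and 45.5% and 0 CG pairs in Slc2a2, against a median of 54.5% and 7 over all protein-coding genes. A match is a description of letters and not of binding, and no match says only that these letters are not in the window.

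In control organoids Slc5a1 was the most abundant of the 7. Per exon length its level in Halo-NLS was 447 ± 157 RPKM (SD, n = 3), followed by Khk at 238 ± 10.7 RPKM. Slc2a1 (58.0 ± 10.3 RPKM) and Slc2a5 (57.1 ± 23.5 RPKM) came next and did not differ beyond their spread, before Slc2a2 (20.2 ± 8.88 RPKM), Slc2a7 (3.76 ± 0.204 RPKM) and Slc2a3 (6 reads in all). The range of Slc2a2, 10.1 to 27.0 RPKM, overlapped neither that of Slc2a5, 32.1 to 78.8, nor that of Slc2a7, 3.56 to 3.97. For Khk, 2003 bases or 27.1% of its exons are shared with Cgref1 on the other strand, and reads there were assigned to neither gene. With the length of the longest transcript in place of the union of exons, Khk stood above Slc5a1 in Halo-NLS and SOX9-Halo_budding.

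Budding SOX9 organoids kept RNA of all members seen in the control, and none of the 6 members tested was called. To be called, a gene needed an adjusted p of 0.01 or less from the quasi-likelihood test of edgeR, adjusted by Benjamini and Hochberg's method over 17560 genes, a change of 2-fold or more, and 10 or more normalized counts on average. Slc2a3, with at most 6 counts in any library, did not pass the filter on low counts. In SOX9-Halo_budding against Halo-NLS 2.49% of genes were called higher and 1.26% lower, and in SOX9-mEGFP_budding against Halo-NLS 1.99% and 0.763%. Both comparisons share the Halo-NLS libraries. The members' median log2 fold change was -0.67 in SOX9-Halo_budding and -0.74 in SOX9-mEGFP_budding, where the median over all genes was 0.01 and 0.03. At an unadjusted p under 0.05 stood Slc2a1 and Slc2a5 in SOX9-Halo_budding, and Slc2a5 and Khk in SOX9-mEGFP_budding. Slc2a1 in SOX9-Halo_budding had a log2 fold change of -1.02 (SE 0.27) and an adjusted p of 0.0213 in edgeR, and was called with DESeq2 at 0.00666. Khk in SOX9-mEGFP_budding had -1.10 (SE 0.44) and an adjusted p of 0.0944, and was called without a filter on low counts at 0.00121. Between the 2 budding lines 0.29% of genes were called higher and 0.165% lower in SOX9-Halo_budding, and of the 6 members none was called or had an unadjusted p under 0.05. Their log2 differences there lay between -0.48 for Slc2a1 and 0.77 for Slc2a7, and DESeq2 called none of them either.

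**Figure D1:**
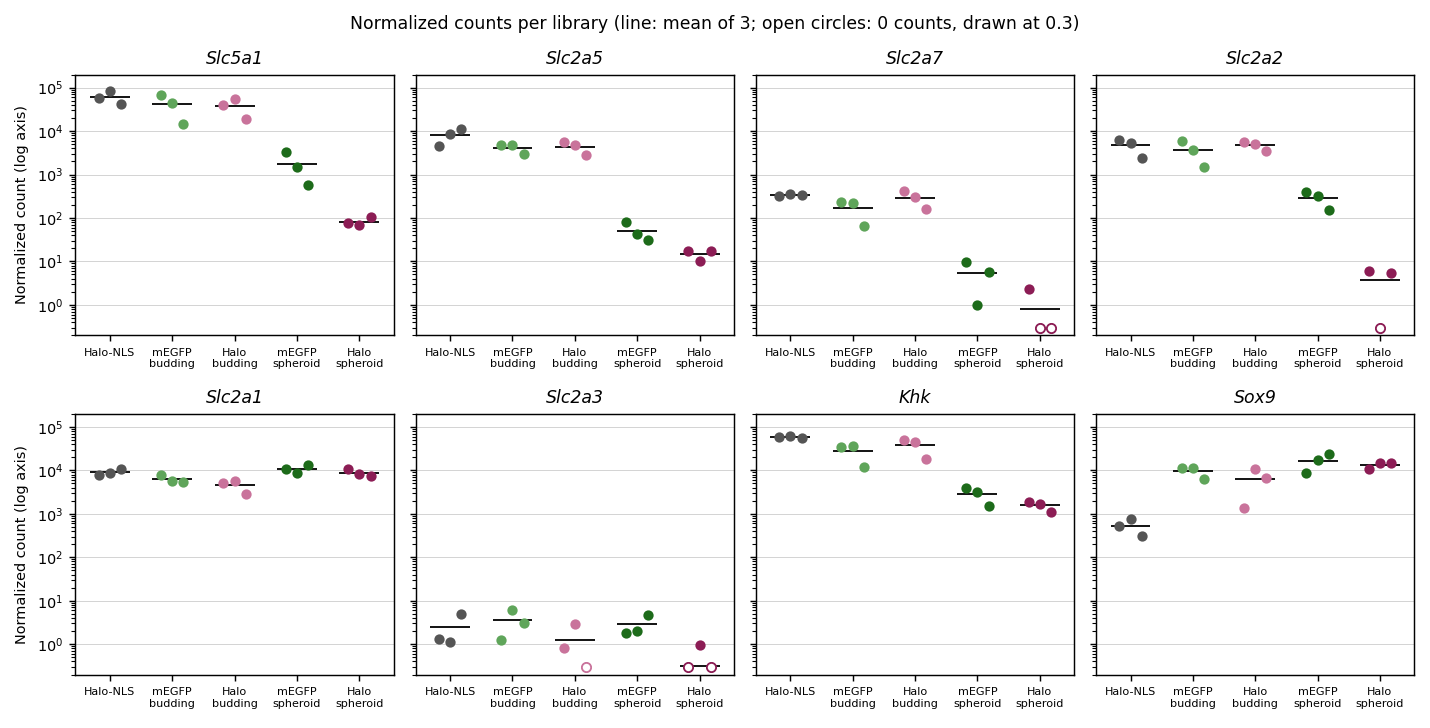
Normalized counts of the 7 members and of Sox9 in each library on a log axis, grouped by condition, with a line at the mean of 3 libraries and open circles for libraries with 0 counts. Slc5a1, Slc2a5, Slc2a7, Slc2a2 and Khk sit lower in both kinds of spheroid than in every Halo-NLS and budding library.

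In spheroids of both lines the uptake carriers, the exit carrier and Khk were all far lower, and Slc2a1 was not. Against Halo-NLS, 5 of the 6 tested members were called lower in SOX9-Halo_spheroid, where 15.3% of genes were called lower and 13.6% higher. The same number was called lower in SOX9-mEGFP_spheroid, where 12.1% of genes were lower and 15.3% higher. Against the budding organoids of the same line, 5 of 6 were lower in SOX9-Halo_spheroid (14.7% of genes lower, 10.5% higher) and 5 of 6 in SOX9-mEGFP_spheroid (7.88% lower, 8.55% higher). In each of these 4 comparisons the members called were Slc5a1, Slc2a5, Slc2a7, Slc2a2 and Khk. The members' median log2 fold change was -8.90 and -4.74 against Halo-NLS and -8.36 and -4.12 against the budding organoids, in SOX9-Halo_spheroid and SOX9-mEGFP_spheroid respectively. The medians over all genes were -0.01, 0.03, -0.08 and -0.04 in the same order. With Slc2a7, which had 2 counts in SOX9-Halo_spheroid, set to 3 counts, the members' medians there were -8.74 and -8.22. In bulk RNA, fewer cells of a type and less RNA per cell cannot be told apart.

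Slc5a1, the apical sodium-glucose carrier, was much lower in SOX9-mEGFP_spheroid and nearly gone in SOX9-Halo_spheroid. The 3 Halo-NLS libraries had 57522, 85053 and 42354 normalized counts. Those of SOX9-mEGFP_budding had 68927, 44165 and 14603, and those of SOX9-Halo_budding 40396, 54334 and 19238, so that budding and control libraries overlapped. In SOX9-mEGFP_spheroid the values were 3238, 1478 and 565, and in SOX9-Halo_spheroid 77.0, 68.1 and 104. The ranges of SOX9-mEGFP_spheroid and SOX9-Halo_spheroid overlapped neither each other nor the other conditions. Against the budding organoids of its line, Slc5a1 was 457-fold lower in SOX9-Halo_spheroid (log2 -8.84, SE 0.82, edgeR adjusted p = 5.7e-07). In SOX9-mEGFP_spheroid it was 24.2-fold lower (log2 -4.60, SE 0.67, adjusted p = 1.0e-04), or log2 -5.40 without SOX9-mEGFP_spheroid replicate 1. The SOX9-mEGFP_spheroid libraries differed 5.73-fold among themselves, and the library with the most Slc5a1 was the one with the least Sox9. In Halo-NLS and both kinds of budding organoid the library with the most Slc5a1 had the most Sox9 instead. In SOX9-Halo_spheroid it had neither the most nor the least. A relation between the 2 genes cannot be tested with 3 libraries per condition.

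Slc2a5, the apical fructose carrier, fell in both lines to below 100 normalized counts in every spheroid library. Halo-NLS had 4653, 8751 and 11399.8, SOX9-mEGFP_budding 4887, 4753 and 2907, and SOX9-Halo_budding 5720.1, 4706 and 2772. The spheroids had 79.9, 43.1 and 30.5 in the SOX9-mEGFP line and 17.8, 10.4 and 17.1 in the SOX9-Halo line. Every spheroid library was below every budding one, and the 2 kinds of spheroid did not overlap. Against budding organoids Slc2a5 was 291-fold lower in SOX9-Halo_spheroid (log2 -8.18, SE 0.53, edgeR adjusted p = 2.2e-08) and 81.3-fold lower in SOX9-mEGFP_spheroid (log2 -6.35, SE 0.48, adjusted p = 2.8e-07). In the SOX9-mEGFP line this was the largest fold of the 6 tested members.

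Its neighbour and relative Slc2a7 was low everywhere and close to absent in spheroids. The counts were 241, 306 and 264 in Halo-NLS, 188, 218 and 86.0 in SOX9-mEGFP_budding and 538, 307 and 163 in SOX9-Halo_budding. In SOX9-mEGFP_spheroid 11.0, 1.00 and 6.00 reads were counted, and in SOX9-Halo_spheroid 2.00, 0 and 0. No spheroid library reached a budding one. As a ratio of scaled counts, budding organoids had 28.3 times the Slc2a7 of spheroids in the SOX9-mEGFP line (95% exact counting interval 17.7 to 48.1) and 459 times in the SOX9-Halo line (127 to 3793), intervals that cover counting error only. The edgeR adjusted p was 6.1e-05 and 1.8e-06. In the SOX9-mEGFP line the fitted log2 value was -4.92, or -5.64 without SOX9-mEGFP_spheroid replicate 1, which held most of the reads.

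Slc2a2, the basolateral exit carrier, had the largest difference between the 2 spheroid lines of the 6 tested members. Its normalized counts were 6254, 5430 and 2349 in Halo-NLS, 5882, 3681 and 1455 in SOX9-mEGFP_budding and 5678, 4977 and 3491 in SOX9-Halo_budding, which overlapped. SOX9-mEGFP_spheroid kept 403, 324 and 155, whereas the SOX9-Halo_spheroid libraries held 5.00, 0 and 6.00 reads. No spheroid library reached a budding one, and none of SOX9-Halo_spheroid reached those of SOX9-mEGFP_spheroid. The log2 fold change from budding to spheroid was -10.28 in the SOX9-Halo line (SE 0.83, edgeR adjusted p = 1.5e-07) and -3.64 in the SOX9-mEGFP line (SE 0.57, adjusted p = 1.8e-04), the latter 12.5-fold. From the scaled counts alone, SOX9-Halo_budding had 1309.7 times the level of SOX9-Halo_spheroid (95% counting interval 732 to 2624).

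Slc2a1, the carrier of many tissues, was not called in any comparison. Halo-NLS had 7851, 8598 and 10961 normalized counts, SOX9-mEGFP_spheroid 10559, 8563 and 13293, and SOX9-Halo_spheroid 11028, 8189.6 and 7259.8, which overlapped. The budding libraries had 7670.0, 5809.8 and 5331 for SOX9-mEGFP and 5026, 5652 and 2848 for SOX9-Halo, all below the lowest Halo-NLS library. Against Halo-NLS the log2 fold change was 0.24 in SOX9-mEGFP_spheroid (95% interval -0.33 to 0.81) and -0.05 in SOX9-Halo_spheroid (-0.62 to 0.52), with edgeR adjusted p of 0.466 and 0.894. The second value changed sign with library sizes alone, without a filter on low counts, and without Halo-NLS replicate 3 or SOX9-Halo_spheroid replicate 3, staying within its interval. Against budding organoids Slc2a1 was 1.96-fold higher in SOX9-Halo_spheroid (log2 0.97, SE 0.27, adjusted p = 0.00921), under the fold needed for a call. It was called with limma-voom (log2 1.00, adjusted p = 0.00643) or without SOX9-Halo_budding replicate 2 (log2 1.17, adjusted p = 0.00639). In SOX9-mEGFP_spheroid the value was 1.72-fold (log2 0.79, SE 0.27, adjusted p = 0.0402). Of its exon bases 249, or 5.31%, are shared with Gm12868 on the other strand. Slc2a3, the neuronal carrier, had 1.00, 1.00 and 4.00 reads in Halo-NLS, 1.00, 6.00 and 4.00 in SOX9-mEGFP_budding, 1.00, 3.00 and 0 in SOX9-Halo_budding, 2.00, 2.00 and 5.00 in SOX9-mEGFP_spheroid and 0, 1.00 and 0 in SOX9-Halo_spheroid. It was not tested in the edgeR fit. Per scaled count it had 8.54 times as many reads in SOX9-mEGFP_spheroid as in SOX9-Halo_spheroid (95% exact counting interval 1.18 to 374, from 9 reads and 1), and the intervals of the 7 other comparisons of conditions included a ratio of 1.

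Khk, the first enzyme of fructose breakdown, fell too but remained well counted in every library. Its normalized counts were 58077, 62062 and 57024 in Halo-NLS, 35018, 35578 and 11847 in SOX9-mEGFP_budding and 48688, 45939.8 and 18589 in SOX9-Halo_budding. They were 4030.0, 3117 and 1518 in SOX9-mEGFP_spheroid and 1920.1, 1656 and 1106 in SOX9-Halo_spheroid. All 6 spheroid libraries lay below all budding ones, and the 2 kinds of spheroid overlapped. Against budding organoids Khk was 24.2-fold lower in the SOX9-Halo line (log2 -4.60, SE 0.51, edgeR adjusted p = 3.3e-06) and 9.51-fold lower in the SOX9-mEGFP line (log2 -3.25, SE 0.48, adjusted p = 1.0e-04). It was the smallest fold of the 5 members called in each line.

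**Figure D2:**
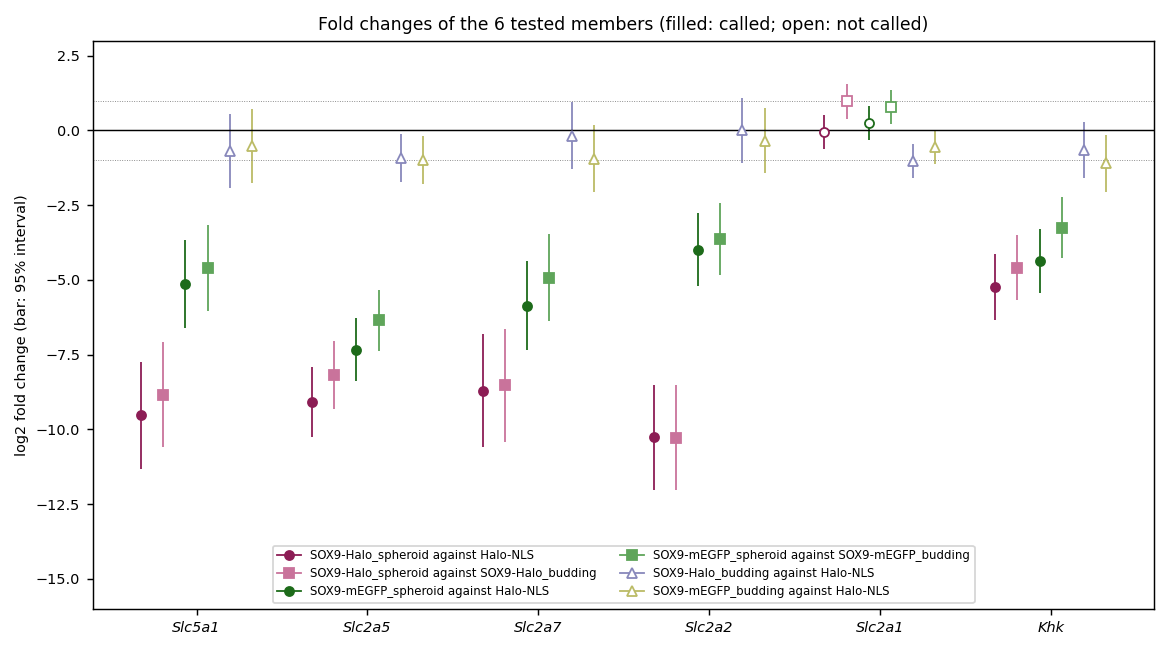
Log2 fold changes of the 6 tested members in 6 comparisons, with 95% intervals from the edgeR fit, filled symbols for called and open ones for uncalled members, and dotted lines at a fold of 2. Slc5a1, Slc2a5, Slc2a7, Slc2a2 and Khk are called in all 4 spheroid comparisons, whereas Slc2a1 stays between -1.02 and 0.97 in the 6 comparisons.

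The make-up of the carrier RNA turned over. These shares were computed after the levels had been seen and are given as a description. Of the summed RPKM of the 6 carriers, Slc5a1 made up 65.4% to 81.2% in Halo-NLS, 63.5% to 81.9% in SOX9-mEGFP_budding and 72.1% to 80.9% in SOX9-Halo_budding. It made up 4.58% to 25.3% in SOX9-mEGFP_spheroid and 0.790% to 1.60% in SOX9-Halo_spheroid. Slc2a1 held 7.19% to 14.8% in Halo-NLS, but 72.1% to 94.3% in SOX9-mEGFP_spheroid and 98.1% to 99.0% in SOX9-Halo_spheroid. The sum itself was 469 to 759 RPKM in Halo-NLS, 66.8 to 92.9 in SOX9-mEGFP_spheroid and 47.0 to 70.7 in SOX9-Halo_spheroid. In both kinds of spheroid Slc2a1 was the most abundant of the 7, at 68.6 ± 15.1 RPKM in SOX9-mEGFP_spheroid and 56.0 ± 12.5 RPKM in SOX9-Halo_spheroid (SD, n = 3). Slc5a1 (12.8 ± 9.85 RPKM) and Khk (11.6 ± 5.12 RPKM) did not differ beyond their spread in SOX9-mEGFP_spheroid, while Khk (6.28 ± 1.67 RPKM) stood above Slc5a1 (0.601 ± 0.134 RPKM) in SOX9-Halo_spheroid.

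**Figure D3:**
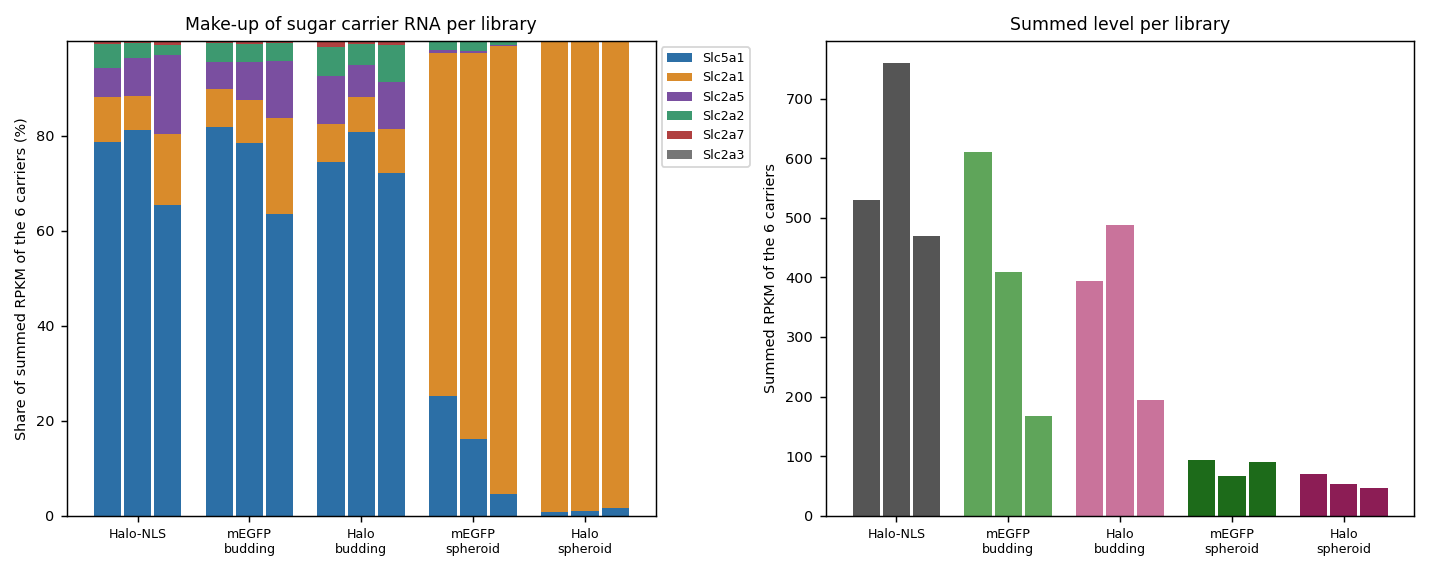
Left, share of each carrier in the summed RPKM of the 6 carriers per library, and right, that sum, with 1 bar per library and 3 libraries per condition. Slc2a1 holds at least 72.1% in every spheroid library and at most 20.3% in every other library.

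The 2 spheroid lines differed in some of these genes. In SOX9-Halo_spheroid against SOX9-mEGFP_spheroid 2 of the 6 members were called lower, where 9.58% of genes were lower and 3.59% higher. Slc2a2 was 77.5-fold lower (log2 -6.28, SE 0.76, edgeR adjusted p = 2.1e-05) and Slc5a1 21.2-fold lower (log2 -4.40, SE 0.68, adjusted p = 1.9e-04). Without SOX9-Halo_spheroid replicate 2 the log2 value of Slc2a2 was -5.67, and without SOX9-mEGFP_spheroid replicate 1 that of Slc5a1 was -3.64, both still called. Slc2a5 had a log2 difference of -1.76 (SE 0.47) at an adjusted p of 0.0120 and was called with DESeq2 (0.00217), with library sizes alone, without a filter on low counts, with only the libraries compared, and without SOX9-mEGFP_spheroid replicate 3 (0.00711). Khk (log2 -0.89, adjusted p = 0.167) and Slc2a1 (log2 -0.29, adjusted p = 0.479) were not called. Slc2a7 was not called either (adjusted p = 0.0876 in the edgeR fit, 0.00581 and called without a filter), with 8.54 times the scaled count in SOX9-mEGFP_spheroid (95% counting interval 2.04 to 75.9).

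The difference between the lines in the budding-to-spheroid change was also tested directly. Here 5.58% of genes were called with a lower and 1.81% with a higher change in SOX9-Halo, and 2 of the 6 members had a lower one. The change of Slc2a2 differed by a log2 value of -6.64 (SE 0.92, edgeR adjusted p = 1.6e-04) and that of Slc5a1 by -4.24 (SE 0.87, adjusted p = 0.00372). The value of Slc2a2 was -7.31 with limma-voom and -6.05 without SOX9-Halo_spheroid replicate 2, and called in both. The call of Slc5a1 was lost without SOX9-mEGFP_budding replicate 2 (adjusted p = 0.0109), SOX9-Halo_spheroid replicate 1 (0.0123) or 2 (0.0144) or SOX9-mEGFP_spheroid replicate 1 (0.0105), and with limma-voom (0.0122). Its value lay between -3.49 and -4.28 in these fits. For Slc2a5 (-1.84, adjusted p = 0.0585), Slc2a7 (-3.61, 0.0760), Khk (-1.35, 0.200) and Slc2a1 (0.18, 0.836) no difference between the lines was called. Without a filter on low counts Slc2a5 (adjusted p = 7.5e-04), Slc2a7 (0.00111) and Khk (0.00429) were called lower too. The study places SOX9-mEGFP_spheroid earlier in culture and less far in becoming a spheroid than SOX9-Halo_spheroid. The tag of SOX9, the second transgene, time in culture and degree of spheroid change thus differ between the lines together and cannot be told apart.

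Some genes of fructose breakdown after Khk were lower in spheroids and others were not called. Of the 8 tested genes of that pathway and of the polyol pathway, which makes fructose from glucose, 4 were called lower and 1 higher in SOX9-Halo_spheroid against Halo-NLS (median log2 fold change -1.46), and 4 lower in SOX9-mEGFP_spheroid (median -1.16). The shares of all genes against Halo-NLS were 15.3% lower and 13.6% higher in SOX9-Halo_spheroid, and 12.1% lower and 15.3% higher in SOX9-mEGFP_spheroid. Those lower in both included Tkfc, Sord and Glyctk, that is triokinase, sorbitol dehydrogenase and glycerate kinase. Against budding organoids 2 were called lower in each line, Tkfc among them, with list medians of -0.63 and -0.41. Of all genes, 14.7% were called lower there in the SOX9-Halo line and 7.88% in the SOX9-mEGFP line. The log2 fold change of Tkfc from budding organoids was -5.36 in the SOX9-Halo line (edgeR adjusted p = 5.8e-07) and -3.97 in the SOX9-mEGFP line (adjusted p = 1.5e-05). Akr1b1, the aldose reductase that makes sorbitol from glucose, was the 1 gene called higher, in SOX9-Halo_spheroid against both Halo-NLS (log2 1.47) and SOX9-Halo_budding (log2 1.38). The glycolytic enzyme Aldoa had log2 values of 0.53 and 0.33 against budding organoids and was not called.

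Genes of glucose output and gluconeogenesis were mostly lower. Of 7 tested genes of glucose output and gluconeogenesis, 5 were called lower in SOX9-Halo_spheroid against SOX9-Halo_budding (median log2 fold change -2.25), and 4 lower and 1 higher in SOX9-mEGFP_spheroid against SOX9-mEGFP_budding (median -1.59). Of all genes, 14.7% were lower and 10.5% higher in the SOX9-Halo line, and 7.88% lower and 8.55% higher in the SOX9-mEGFP line. G6pc1, the glucose-6-phosphatase that frees glucose, had 2628 to 4272 normalized counts in Halo-NLS, 1.90 to 27.5 in SOX9-mEGFP_spheroid and 4 reads in all of SOX9-Halo_spheroid. Fbp1, a fructose-bisphosphatase of liver, had log2 fold changes of -8.98 and -6.84 from budding organoids (edgeR adjusted p = 5.0e-06 and 2.1e-05), and its muscle-type counterpart Fbp2 of -2.25 and -1.59 (adjusted p = 2.3e-06 and 1.2e-04). Slc37a4, the carrier of glucose 6-phosphate into the endoplasmic reticulum, was lower in the SOX9-Halo line (log2 -2.04) and had -1.27 in the SOX9-mEGFP line without a call (adjusted p = 0.0131). Pck1, the cytosolic PEP carboxykinase, had 18.9 to 45.9 normalized counts in Halo-NLS, was called lower in both lines and had 0 reads in SOX9-Halo_spheroid and 1 in SOX9-mEGFP_spheroid. Its mitochondrial form Pck2 was the gene called higher in SOX9-mEGFP_spheroid against SOX9-mEGFP_budding (log2 1.26, adjusted p = 0.00415). It had 8197 to 10688 normalized counts in these spheroids, 3778 to 4452 in the budding organoids and 6084 to 9177 in Halo-NLS. Against Halo-NLS no gene of the list was called higher in SOX9-mEGFP_spheroid. Pck2 was also the 1 gene of the list called in a budding line, lower in SOX9-Halo_budding against Halo-NLS (log2 -1.41, adjusted p = 0.00803), where 1.26% of all genes were lower.

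Brush-border disaccharidases, which release the sugars that the carriers take up, were lower in both spheroid lines with 1 exception. All 4 genes of the list were called lower in SOX9-Halo_spheroid against SOX9-Halo_budding (median log2 fold change -9.64) and 3 in SOX9-mEGFP_spheroid against SOX9-mEGFP_budding (median -4.08). In the same comparisons 14.7% and 7.88% of all genes were called lower. Sucrase-isomaltase (Sis) had log2 fold changes of -10.49 and -4.10 in the SOX9-Halo and the SOX9-mEGFP line, and trehalase (Treh) of -9.69 and -4.06. Lactase (Lct) had -9.60 and -9.26, with 1.00 to 5.32 normalized counts in SOX9-mEGFP_spheroid and 1.18 to 6.30 in SOX9-Halo_spheroid, and no line difference was called for it (log2 -0.33, edgeR adjusted p = 0.907). Maltase-glucoamylase (Mgam) was lower in the SOX9-Halo line (log2 -6.70) but not called in the SOX9-mEGFP line (log2 -0.98, adjusted p = 0.160), where the spheroids held 11811 to 15242 normalized counts. A line difference was called for Sis, Treh and Mgam, at log2 values of -6.39, -5.63 and -5.72.

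Hexokinases, which trap glucose by phosphorylation, changed in both directions from budding organoids to spheroids, with values given for the SOX9-Halo and then the SOX9-mEGFP line. Hk1, a hexokinase of most tissues, rose (log2 2.84 and 1.57, edgeR adjusted p = 3.0e-05 and 0.00496). Hkdc1, a hexokinase-like enzyme, fell (log2 -9.22 and -2.56, adjusted p = 8.7e-09 and 1.3e-04), to at most 15.3 normalized counts in SOX9-Halo_spheroid and to 1625 to 1864 in SOX9-mEGFP_spheroid. Chosen after its values were seen, Hk2 was also called higher in both lines (log2 1.04 and 1.13).

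Among other sugar carriers some were called lower and none higher against budding organoids. Of 6 tested SLC5 genes, 4 were lower in SOX9-Halo_spheroid and 3 in SOX9-mEGFP_spheroid against budding organoids, with medians of -3.60 (-3.45 with genes at or under 3 counts set to 3) and -3.35. Slc5a4b, a relative of SGLT1, had 565 to 1473 normalized counts in SOX9-Halo_budding, 4.01 to 21.3 in SOX9-mEGFP_spheroid and 1 read in all of SOX9-Halo_spheroid. Slc5a9 was lower in the SOX9-Halo line (log2 -1.74, edgeR adjusted p = 1.3e-04) and had 0.53 in the other (adjusted p = 0.174), a line difference that was called (log2 -2.27, adjusted p = 9.9e-04). Of 5 tested SLC2 genes outside the members, 1 was lower in SOX9-Halo_spheroid against SOX9-Halo_budding, the urate carrier Slc2a9 (log2 -2.35), and 0 in SOX9-mEGFP_spheroid, with medians of -0.03 and -0.53. Slc2a8 had -0.03 and 0.01 and was not called. Among 5 genes of galactose breakdown, 1 was lower in each line, the mutarotase Galm (log2 -2.96 and -2.11), with medians of -0.61 and -0.08. In these comparisons 14.7% of all genes were called lower and 10.5% higher in the SOX9-Halo line, and 7.88% and 8.55% in the SOX9-mEGFP line. Of 5 tested genes of the sodium pump and regulators of SGLT1, 1 was called higher and 1 lower in SOX9-Halo_spheroid against SOX9-Halo_budding. In SOX9-mEGFP_spheroid against SOX9-mEGFP_budding 1 was higher, and the medians were 0.60 and 0.42. The one lower was the pump subunit Atp1b1 (log2 -1.16, adjusted p = 0.00911).

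**Figure D4:**
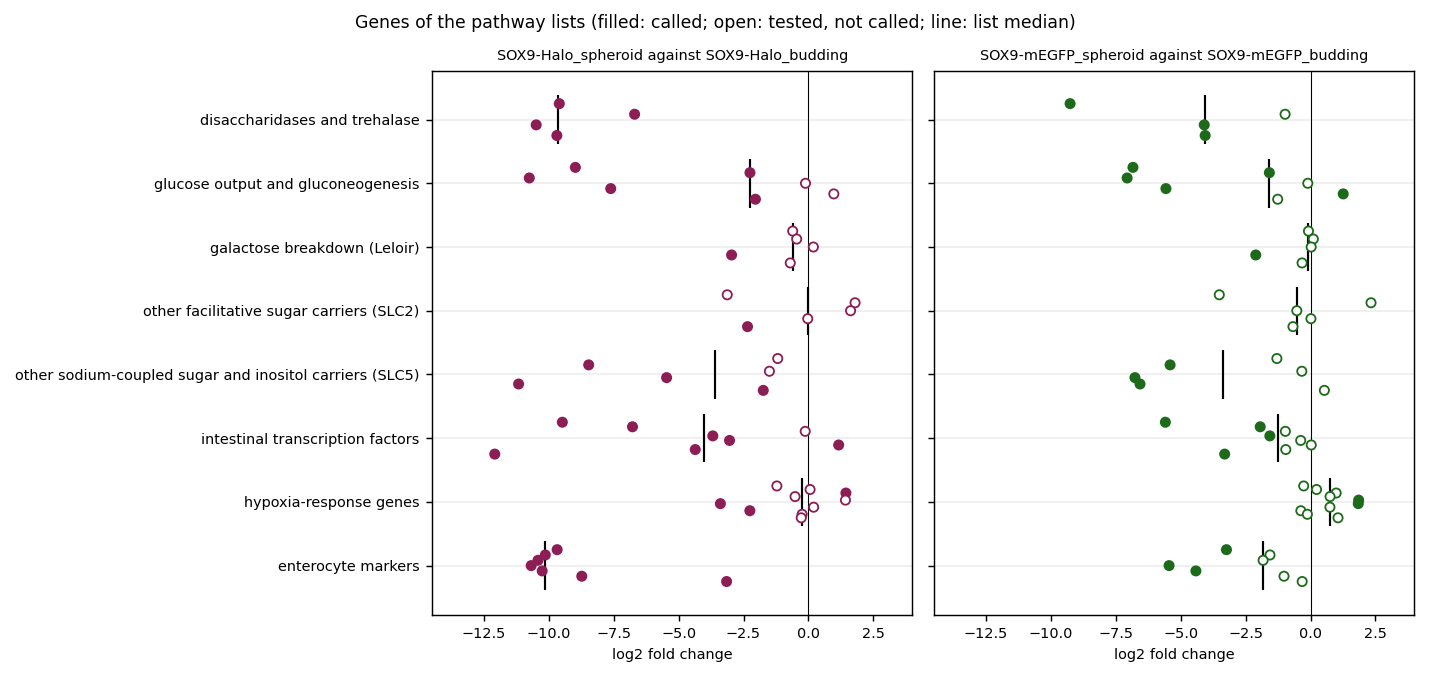
Log2 fold change of each tested gene of 8 lists in the SOX9-Halo (left) and SOX9-mEGFP (right) line, spheroid against budding, with filled circles for called genes, open ones for uncalled genes and a line at the list median. The disaccharidase median lies at -9.64 on the left and -4.08 on the right.

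Factors known for regulating these genes were also measured, and their part in the members' changes was not tested. Of 5 carbohydrate-response genes, Mlxipl (ChREBP), a factor that responds to sugar metabolites, was the 1 called against budding organoids in either line (log2 -9.20 and -3.53, edgeR adjusted p = 1.7e-08 and 2.3e-05), with list medians of -0.30 and -0.27. Txnip, a glucose-responsive arrestin, had -0.30 and 0.56 and was not called. Of 8 intestinal transcription factors, 6 were lower and 1 higher in SOX9-Halo_spheroid against SOX9-Halo_budding (median -4.02), and 4 lower in SOX9-mEGFP_spheroid (median -1.27). Cdx2 fell in both lines (log2 -6.78 and -1.94, adjusted p = 1.3e-09 and 2.7e-05). Hnf4a fell in the SOX9-Halo line (log2 -4.36, adjusted p = 1.6e-08) and had -0.96 in the SOX9-mEGFP line, under a fold of 2 (adjusted p = 0.00688). Of 10 hypoxia-response genes, a response that Slc2a1 is known to share, 1 was higher and 2 lower in SOX9-Halo_spheroid against SOX9-Halo_budding. There 10.5% of all genes were called higher and 14.7% lower. In SOX9-mEGFP_spheroid against SOX9-mEGFP_budding 2 were higher and 0 lower, where 8.55% of all genes were higher and 7.88% lower. The list medians were -0.26 and 0.75.

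Markers of enterocytes were lower in spheroids, more so in the SOX9-Halo line. Their 7 genes summed to 6274 to 8767 CPM in Halo-NLS, 3117 to 6167 in SOX9-Halo_budding, 1493 to 5675 in SOX9-mEGFP_budding, 1019 to 1339 in SOX9-mEGFP_spheroid and 101 to 140.4 in SOX9-Halo_spheroid. All 7 were called lower in SOX9-Halo_spheroid against SOX9-Halo_budding (median -10.14) and 3 in SOX9-mEGFP_spheroid against SOX9-mEGFP_budding (median -1.83), and none had 3 reads or fewer in every library of a condition. Of all genes, 14.7% were lower and 10.5% higher in the first comparison, and 7.88% lower and 8.55% higher in the second. Vil1, the brush-border protein villin, was lower in the first (log2 -3.15) and had -0.32 in the second (edgeR adjusted p = 0.419). Fabp1, a fatty acid binding protein, was lower in both (log2 -10.68 and -5.45). A line difference was called for all 7 markers (median log2 -6.44) and for 2 of the 6 tested members (median -2.72). Of all genes 5.58% had a lower and 1.81% a higher change in SOX9-Halo. The 2 counts are not directly comparable. Slc2a7 had few reads in both kinds of spheroid (18 in SOX9-mEGFP_spheroid and 2 in SOX9-Halo_spheroid). Without a filter on low counts Slc2a5, Slc2a7 and Khk were called too. Of the 5 pan-epithelial markers, 1 was higher and 1 lower in SOX9-Halo_spheroid and 1 higher in SOX9-mEGFP_spheroid against budding organoids. These counts are too small to be set apart from the shares of all genes. The part of enterocyte markers in the members' changes was not tested.

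For each tested member the 2 genes most like it were taken by Pearson correlation of log2 CPM over the 15 libraries, among 11053 genes that averaged 100 or more normalized counts. The libraries fall into spheroids and budding or control organoids, so these r values share that split and are a description. Slc5a1 was nearest to Cds1 (r = 0.998) and Aoc1 (0.997), Slc2a5 to Slc30a2 (0.996) and Slc23a4 (0.994), and one of the genes nearest to Slc2a2 was Abcg5 (0.995). Slc2a7 and Khk both had Hadh (0.990 and 0.994) among their nearest 2, beside Nat8f1 (0.990) and Eci1 (0.994). Slc2a1 was nearest to Eif4ebp1 (0.949) and 4930455G09Rik (0.948). By Spearman's rho 2 of the 12 pairs of a member and a near gene were again among the nearest 2, or 4 when ties are counted.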

How the data were processed

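Organoids of 5 conditions with 3 libraries each were compared. Per the methods and labels, the authors trimmed reads with cutadapt 4.5, used STAR to align them to mm39 (GRCm39), retained only uniquely aligned reads, and counted those per Ensembl gene with HTSeq 2.0.2 in union mode without strand, and deposited those counts per library. Reads on bases shared by genes were thus not assigned (9.65% to 13.6% of reads, beside 1.83% to 6.09% on no gene), and a gene and an antisense partner cannot be told apart. The Ensembl release was not given in the sources used here. The deposited normalized counts and the 7 tables of the authors' own comparisons (means, fold changes, p-values) were not used.

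The deposited counts were tested with edgeR 4.0.16 (R 4.3.3) by the quasi-likelihood F test in 1 fit of all 15 libraries with TMM scaling and filterByExpr (17560 genes), with Benjamini-Hochberg adjustment. Standard errors are the log2 fold change over the root of F, and 95% intervals use the t quantile of the fit's degrees of freedom. A call needed an adjusted p no higher than 0.01, 2-fold change and 10 normalized counts on average. P-values measure the spread between libraries of a line. RPKM used the union of exons of GENCODE M39, which was matched by gene identifier, and promoter windows came from the same annotation and genome. In a simulation on 17560 genes for SOX9-Halo_spheroid against Halo-NLS, 4 of 50 genes changed 2-fold and 48 of 50 changed 4-fold were called, with 1 false call. It gave every gene the same biological spread and changed only well-counted genes, so it does not give the power for each member. Alternatives were RLE scaling, library sizes alone, no filter, DESeq2 1.42.0, limma-voom (limma 3.58.1), only the libraries compared, the replicate number as a block and each library left out. Members and lists were chosen with earlier results of these data known. Named genes are the members, Sox9, the 2 most abundant tested genes of each list, every called gene of the fructose, glucose output and disaccharidase lists, and the 2 genes most correlated with each tested member, of which some are not reported here. Equally numbered replicates correlated above 0.1 in all 3 pairs only between SOX9-Halo_budding and SOX9-Halo_spheroid (r = 0.403, 0.234 and 0.344 over 11054 genes). Single pairs of other conditions reached higher values. They were 0.817 for replicate 2 of Halo-NLS and SOX9-Halo_budding and 0.74 for replicate 3 of the 2 budding lines, while others were negative, down to -0.32. Replicate 3 had the least Khk in every condition and the least Slc5a1 in all but SOX9-Halo_spheroid. How replicates of equal number are related was not stated.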

Additional observations from a re-analysis of the deposited data

Results flagged for a closer look

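The change of Slc2a2 from budding organoids to spheroids differed between the SOX9-Halo and the SOX9-mEGFP line by a log2 value of -6.64 and that of Slc5a1 by -4.24, each past the threshold in an edgeR test of the difference itself, with 3 libraries in each of the 4 conditions. The call of Slc5a1 was lost in 5 alternative fits, with adjusted p between 0.0105 and 0.0144, while that of Slc2a2 was kept in all alternatives run. No explanation of either difference was tested.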

How the results depend on the processing

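All called results of members kept direction and call in every alternative run, except the line difference of Slc5a1, which lost its call with limma-voom and without 4 libraries. The number of members called moved as follows and the cause was not tested. In SOX9-Halo_budding against Halo-NLS it was 1 with DESeq2 (Slc2a1), in SOX9-mEGFP_budding against Halo-NLS 1 without a filter on low counts (Khk), in SOX9-Halo_spheroid against SOX9-mEGFP_spheroid 4 without a filter and 3 with DESeq2, library sizes alone, only the libraries compared or without SOX9-mEGFP_spheroid replicate 3, in SOX9-Halo_spheroid against SOX9-Halo_budding 6 with limma-voom or without SOX9-Halo_budding replicate 2 (Slc2a1 added), and in the line difference 5 without a filter, 1 with limma-voom and 1 to 2 when each library was left out. Values that changed sign were all uncalled. Slc2a1 in SOX9-Halo_spheroid against Halo-NLS was 0.23 with library sizes alone, 0.027 without a filter and -0.23 to 0.10 with each library left out. Slc2a2 in SOX9-Halo_budding against Halo-NLS was -0.013 with RLE scaling, -0.00913 with DESeq2 and -0.31 to 0.28 with each library left out, and Slc2a7 there was 0.11 with library sizes alone and -0.53 to 0.15 with each library left out. With each library left out, Slc2a2 in SOX9-mEGFP_budding against Halo-NLS was -0.86 to 0.035, the line difference of Slc2a1 -0.051 to 0.38, and in SOX9-Halo_budding against SOX9-mEGFP_budding Slc5a1 was -0.59 to 0.37, Slc2a2 -0.045 to 0.87 and Slc2a5 -0.16 to 0.31. With the replicate number as a block, 5 members were called in SOX9-Halo_spheroid against SOX9-Halo_budding, also when only those 6 libraries were fitted (an alternative chosen after seeing the data), and the block changed no other call.

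Over all genes, 659 were called in SOX9-Halo_budding against Halo-NLS, but 1503 with DESeq2, 1178 with library sizes alone, 1001 with limma-voom, 2357 without a filter, 5 with only the libraries compared and 201 to 2370 with each library left out. In SOX9-mEGFP_budding against Halo-NLS the 484 became 1225, 728, 1991 (without a filter), 103 (only the libraries compared) and 216 to 2184, and in SOX9-Halo_budding against SOX9-mEGFP_budding the 80 became 200 with DESeq2, 280 without a filter, 19 with only the libraries compared and 46 to 101. Library sizes alone moved the median of all genes against Halo-NLS to between 0.27 and 0.31, and the share of calls that were higher from 47.1% to 58.2% in SOX9-Halo_spheroid, 55.8% to 69.0% in SOX9-mEGFP_spheroid, 66.5% to 90.7% in SOX9-Halo_budding and 72.3% to 85.2% in SOX9-mEGFP_budding. Of 35 ranks of members by level, 27 were kept with the longest transcript's length and 35 with library sizes alone. Values of Slc2a3, and of Slc2a7 and Slc2a2 in SOX9-Halo_spheroid, rest on a few reads and are imprecise.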
